A study of Mus musculus with 24 samples.

Results

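The genes described here are those of cholesterol and fatty acid synthesis. They comprise 5 regulators of the SREBP transcription factors, 19 sterol genes that make or move cholesterol and its precursors, and 11 fatty acid genes that make, lengthen or desaturate fatty acids. They were taken by symbol from the deposited exon RPKM table (reads scaled to the exonic length of the gene and to the library total), and all 35 were found among its 33079 genes. RNA was measured in differentiated mouse embryonic stem cells of 2 genotypes. WT cells were the control line, which carried the Per2::Luciferase knock-in, and KO cells carried the same knock-in and were in addition deficient in Rev-erba and Rev-erbb, which encode the REV-ERB nuclear receptors, repressors of transcription. Both lines were grown through embryoid bodies to differentiation day 28, both received 100 nM dexamethasone, and 1 library was made per genotype at each time point from 12 h to 56 h afterwards, every 4 h. This gives 12 WT and 12 KO libraries, and each library holds RNA pooled from 3 embryoid bodies. The KO line was made by deleting an exon of Rev-erba with CRISPR/Cas9 in an established clone that already lacked Rev-erbb, so the genotype cannot be told apart from other differences between the lines. The labels do not say that the libraries came from separate cultures, so p-values measure the spread among these libraries, and each SD over the 12 time points contains change over time as well as noise.

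Sterols and fatty acids are both built from cytosolic acetyl-CoA, and the enzymes of both routes are switched on by SREBP transcription factors. These are made as membrane proteins of the endoplasmic reticulum. SCAP carries them to the Golgi, where proteases free the active part, and when sterols are plentiful the INSIG proteins hold SCAP back. SREBP2, from *Srebf2*, acts mainly on sterol genes and SREBP1c, a product of *Srebf1*, mainly on fatty acid genes, and in liver REV-ERBα is known to shape the daily rhythm of SREBP activity, in part through *Insig2*. The question for these data was whether the same genes differed in level, rhythm or course over time when REV-ERBs were missing in a mixed culture of differentiated cells.

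The libraries held 6183500.5 to 10287969 fragments on exons. *Nr1d1* (REV-ERBα) had 3.58 to 7.48 RPKM in WT and 2.48 to 9.74 RPKM in KO libraries, and *Nr1d2* (REV-ERBβ) had 0.895 to 3.02 RPKM in WT and 1.38 to 5.27 RPKM in KO libraries. Loss of 1 exon cannot be read from gene-level values, so the genotype of a library rests on its label. *Arntl*, which encodes the clock activator BMAL1 and is a known target of REV-ERB repression, had means of 3.55 ± 0.55 RPKM (WT) and 4.72 ± 0.39 RPKM (KO, SD, n = 12, limma adjusted p = 0.0001). Of 15112 genes tested, 11.5% were higher and 14.7% lower in KO cells at an adjusted p under 0.05, and the median log2 difference of all genes tested was -0.01. The balance depended on the scaling, with 1743 genes higher and 2227 lower here and 2062 higher and 1956 lower with median-ratio scaling.

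Among markers of cell types that such cultures can hold, 6 of 6 epithelial keratin and adhesion genes were higher in KO cells, and their summed level was 339 to 593 RPKM in WT and 544 to 1205 RPKM in KO libraries. Of 7 neuron and glia markers 6 were tested and 3 were lower in KO cells, *Gfap* and *Snap25* among them, with a summed level of 7.14 to 50.1 RPKM in WT and 5.09 to 13.0 RPKM in KO libraries. Of 7 adipocyte markers 5 were tested and 2 were higher (*Lpl* and *Cebpa*), with summed levels of 198 to 263 RPKM in WT and 223 to 351 RPKM in KO libraries. The adipocyte genes *Adipoq* and *Plin1* were at or near 0, with at most 0.48 RPKM and 0.145 RPKM in any library. None of 7 hepatocyte or visceral endoderm markers was called by limma, and their sums spanned 150 to 1359 RPKM in WT and 144 to 1361 RPKM in KO libraries. Of 6 heart and smooth muscle markers 4 were higher and 1 was lower in KO cells (summed level 288 to 393 RPKM in WT, 322 to 429 RPKM in KO libraries), and of 6 macrophage markers 2 were higher (249 to 303 and 260 to 320 RPKM). None of 5 proliferation markers was called. Their median log2 difference was 0.30, with summed levels of 5.78 to 16.9 RPKM in WT and 7.52 to 19.0 RPKM in KO libraries. Of 4 steroid-producing markers 3 were tested, of 4 pluripotency markers 1 was, and none of these was called. The summed pluripotency markers were at 0.0659 to 5.71 RPKM in WT and 0.0655 to 3.17 RPKM in KO libraries. The part of these shifts in the results that follow was not tested, and in bulk RNA fewer cells of a type and less RNA per cell cannot be told apart.

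Part of the sterol and fatty acid genes had modestly more RNA in KO than in WT cells, and among the regulators only *Insig1* passed the test. Of the 35 genes, 14 were higher and 1 was lower in KO cells at an adjusted p under 0.05 in limma on log2(RPKM + 0.1), against the 11.5% and 14.7% of all genes given above. The 14 comprised 8 of 19 sterol genes and 6 of 11 fatty acid genes. The rises were small, from 10.4% for *Sc5d* to 29.9% for *Idi1* among sterol genes and from 6.76% for *Acly* to 36.5% for *Scd1* among fatty acid genes, comparing mean RPKM. The median log2 difference was 0.00 for the regulators, 0.15 for the sterol genes and 0.11 for the fatty acid genes. Estimates above 0 were found for 3 of 5 regulators, 18 of 19 sterol genes and 8 of 11 fatty acid genes, where 45.9% of all genes tested had one.

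**Figure D1:**
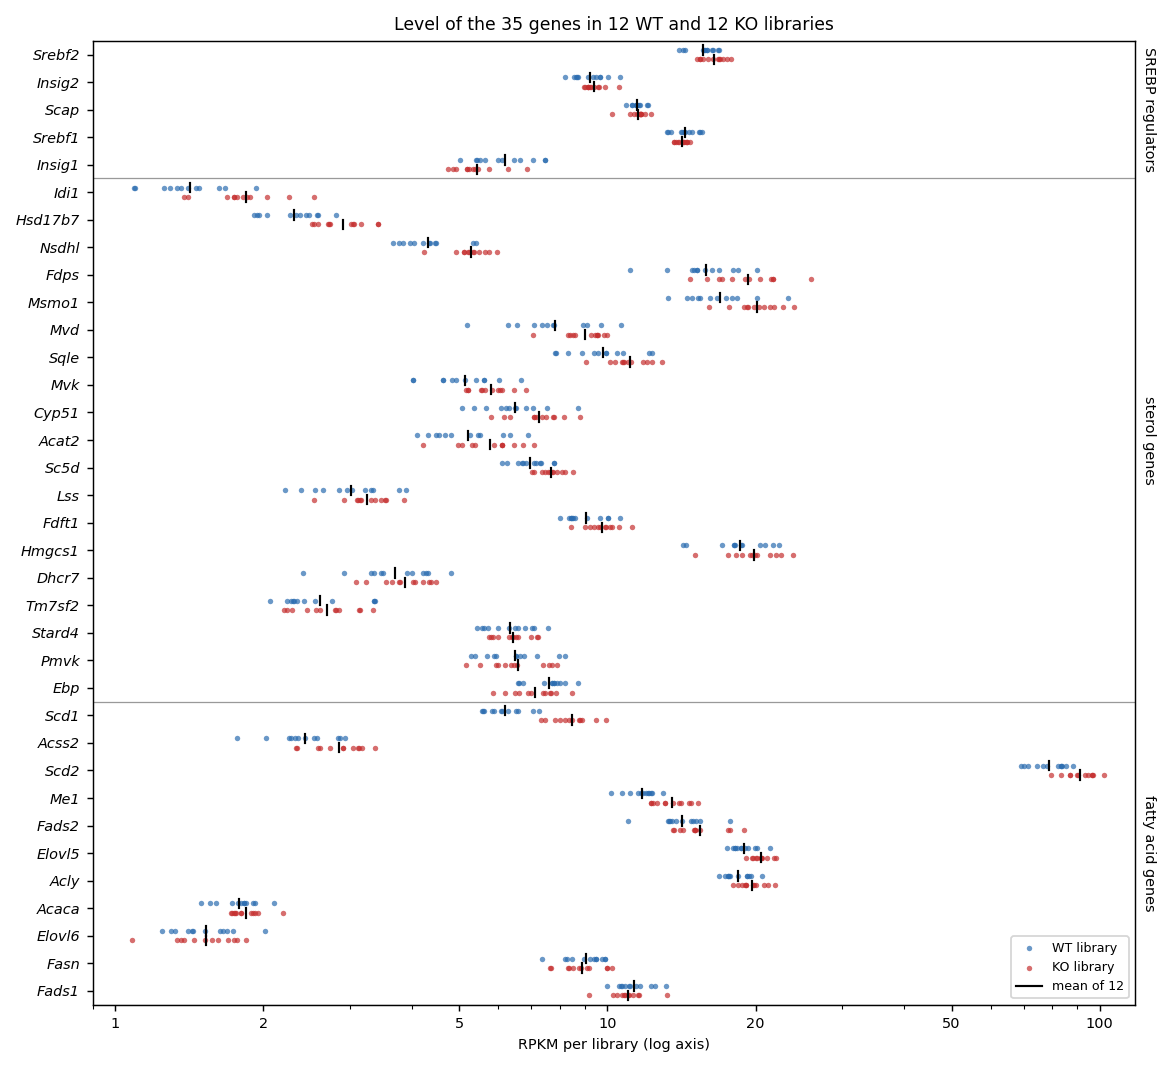
RPKM (log axis) of the 35 genes in each of the 12 WT and 12 KO libraries, with a point per library and a bar at the mean of 12. Within each group genes are ordered by the difference between KO and WT. The KO points of *Scd1* all lie above its WT points, and the points of the 2 genotypes overlap for the other 34 genes.

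The regulators were expressed at moderate levels in every library. *Srebf2* ranged from 14.0 to 16.9 RPKM in WT libraries with a median of 15.8, and from 15.2 to 17.9 RPKM in KO libraries with a median of 16.6. Its KO values were higher at 10 of 12 time points but overlapped the WT values widely, and the log2 difference was 0.07 ± 0.03 (SE, adjusted p = 0.139). *Srebf1*, whose row sums both of its main isoforms, ranged from 13.2 to 15.6 RPKM with a median of 14.3 in WT and from 13.6 to 14.7 RPKM with a median of 14.2 in KO libraries. Its KO values lay inside the WT range, with a log2 difference of -0.02 ± 0.03 (adjusted p = 0.569).

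*Scap*, which encodes the escort protein, had a median of 11.5 RPKM in WT (10.9 to 12.1) and 11.6 RPKM in KO libraries (10.2 to 12.3), with a log2 difference of 0.00 ± 0.02 (adjusted p = 0.939). *Insig2* had a median of 9.24 RPKM in both genotypes, with 8.19 to 10.6 RPKM in WT and 8.95 to 10.5 RPKM in KO libraries. Its difference was 0.03 ± 0.04 on the log2 scale, with a 95% confidence interval from -0.05 to 0.11 (adjusted p = 0.586), so a change larger than this interval was not found for the INSIG gene that REV-ERBα is known to regulate in liver.

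*Insig1*, which encodes the other SCAP anchor and is itself a known SREBP target, was the only member called lower in KO cells. WT libraries ranged from 5.02 to 7.48 RPKM with a median of 6.04, and KO libraries from 4.74 to 6.86 RPKM with a median of 5.29. The groups overlapped, with 3 KO libraries below the lowest WT value and KO lower at 10 of 12 time points. The log2 difference was -0.18 ± 0.07 (limma adjusted p = 0.0494). This call was at the threshold and was lost under 17 of 22 alternatives, where the adjusted p reached 0.465. The highest KO value was at 36 h, and the WT values at 48 h and 56 h, 7.46 and 7.48 RPKM, were the highest of all.

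The sterol genes are described along the pathway, starting with the mevalonate enzymes that turn acetyl-CoA units into the isoprenoid farnesyl diphosphate. In this block of 6 genes 3 were higher in KO cells (*Mvk*, *Idi1* and *Fdps*) and all 6 had estimates above 0. *Idi1*, an isomerase of the isoprenoid unit and the lowest expressed sterol gene, ranged from 1.09 to 1.93 RPKM with a median of 1.38 in WT and from 1.38 to 2.53 RPKM with a median of 1.79 in KO libraries. KO was higher at 12 of 12 time points, although only 3 KO libraries lay above the highest WT value. Its log2 difference of 0.35 ± 0.09 was the largest among the sterol genes (adjusted p = 0.00537), and it rests on a mean of 71.6 fragments per WT library.

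*Fdps*, which encodes farnesyl diphosphate synthase, ranged from 11.1 to 20.1 RPKM with a median of 15.5 in WT and from 14.7 to 25.9 RPKM with a median of 19.2 in KO libraries. The highest KO value came from the 40 h library, and the groups overlapped with 5 KO libraries above all WT values. The log2 difference was 0.28 ± 0.09 (adjusted p = 0.0168). In the GENCODE M21 annotation 26.7% of the exonic bases of all its transcripts are shared with another gene model on the same strand. Reads there cannot be assigned to *Fdps* alone, but whether these bases lie in the exons counted was not checked. *Mvk*, mevalonate kinase, had a median of 5.03 RPKM in WT (4.03 to 6.67) and 5.73 RPKM in KO libraries (5.16 to 6.84). Every KO library exceeded the WT median, and the log2 difference was 0.18 ± 0.07 (adjusted p = 0.0497). The call for *Mvk* was lost under 14 of 22 alternatives, where the adjusted p reached 0.67.

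*Hmgcs1*, HMG-CoA synthase and the highest expressed sterol gene in WT cells, ranged from 14.2 to 22.3 RPKM with a median of 18.4 in WT and from 15.0 to 23.8 RPKM with a median of 19.8 in KO libraries. The values overlapped over most of their range, and the log2 difference of 0.10 ± 0.07 did not pass the test (95% confidence interval -0.05 to 0.25, adjusted p = 0.326). *Mvd*, mevalonate diphosphate decarboxylase, had a median of 7.65 RPKM in WT (5.18 to 10.6) and 9.35 RPKM in KO libraries (7.05 to 9.99), with a log2 difference of 0.22 ± 0.09 (adjusted p = 0.0628). *Pmvk*, phosphomevalonate kinase, had a difference of 0.02 ± 0.08 (adjusted p = 0.901).

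Of the 3 genes that join 2 farnesyl units and close the first sterol ring, *Sqle* was higher in KO cells. This gene, squalene epoxidase, catalyses a rate-limiting oxygenation. It ranged from 7.82 to 12.3 RPKM with a median of 9.76 in WT and from 9.05 to 12.9 RPKM with a median of 10.9 in KO libraries. Just 1 KO library exceeded the highest WT value, and the log2 difference was 0.19 ± 0.07 (adjusted p = 0.0477), a call lost under 10 of 22 alternatives (adjusted p up to 0.422). *Fdft1* (squalene synthase) and *Lss* (lanosterol synthase) had log2 differences of 0.11 ± 0.05 and 0.12 ± 0.08 and were not called (adjusted p = 0.0777 and 0.286). For *Fdft1* 18.3% of the exonic bases of all its transcripts overlap *Ctsb* on the opposite strand. Whether these lie in the exons counted was not checked, and the sources used here do not state whether strand was used in counting.

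The 8 genes that convert lanosterol to cholesterol had 4 calls, all higher in KO cells. *Hsd17b7*, a 3-ketosteroid reductase of this route, ranged from 1.92 to 2.81 RPKM with a median of 2.35 in WT and from 2.51 to 3.42 RPKM with a median of 2.87 in KO libraries. The ranges met only between 2.51 and 2.81 RPKM, 6 KO libraries lay above every WT library, and the log2 difference was 0.32 ± 0.07 (adjusted p = 0.000827). *Nsdhl*, which helps to remove methyl groups from the sterol ring, ranged from 3.67 to 5.40 RPKM with a median of 4.29 in WT and from 4.25 to 5.96 RPKM with a median of 5.28 in KO libraries. For both genes KO was higher at 12 of 12 time points, and *Nsdhl* had a log2 difference of 0.29 ± 0.06 (adjusted p = 0.000954).

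*Msmo1*, the methyl sterol oxidase that acts just before *Nsdhl*, ranged from 13.2 to 23.3 RPKM with a median of 16.4 in WT and from 16.0 to 23.9 RPKM with a median of 20.1 in KO libraries. It was the highest expressed sterol gene in KO cells, and its log2 difference was 0.26 ± 0.07 (adjusted p = 0.012). *Sc5d*, which places a double bond in the sterol ring, ranged from 6.12 to 7.80 RPKM with a median of 6.96 in WT and from 7.03 to 8.51 RPKM with a median of 7.68 in KO libraries. Every KO value of *Sc5d* was above the WT median, and the log2 difference was small but tightly estimated at 0.14 ± 0.04 (adjusted p = 0.0094). These genes encode enzymes of the same route, and their calls all pointed in the same direction. Not every gene of the block shared this direction.

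The other 4 genes of this block were not called. *Cyp51*, the lanosterol demethylase, had a log2 difference of 0.16 ± 0.07 (adjusted p = 0.106), *Dhcr7*, which completes cholesterol, of 0.08 ± 0.09 (adjusted p = 0.54), and *Tm7sf2*, a sterol reductase, of 0.05 ± 0.09 (adjusted p = 0.681). *Ebp*, the sterol isomerase, was the only sterol gene with an estimate below 0, at -0.09 ± 0.06 (adjusted p = 0.218), with 6.58 to 8.69 RPKM in WT and 5.85 to 8.45 RPKM in KO libraries. The 2 supply and transport genes, *Acat2*, a cytosolic acetoacetyl-CoA thiolase, and *Stard4*, a cholesterol carrier, had differences of 0.15 ± 0.09 and 0.02 ± 0.05 (adjusted p = 0.198 and 0.829).

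**Figure D2:**
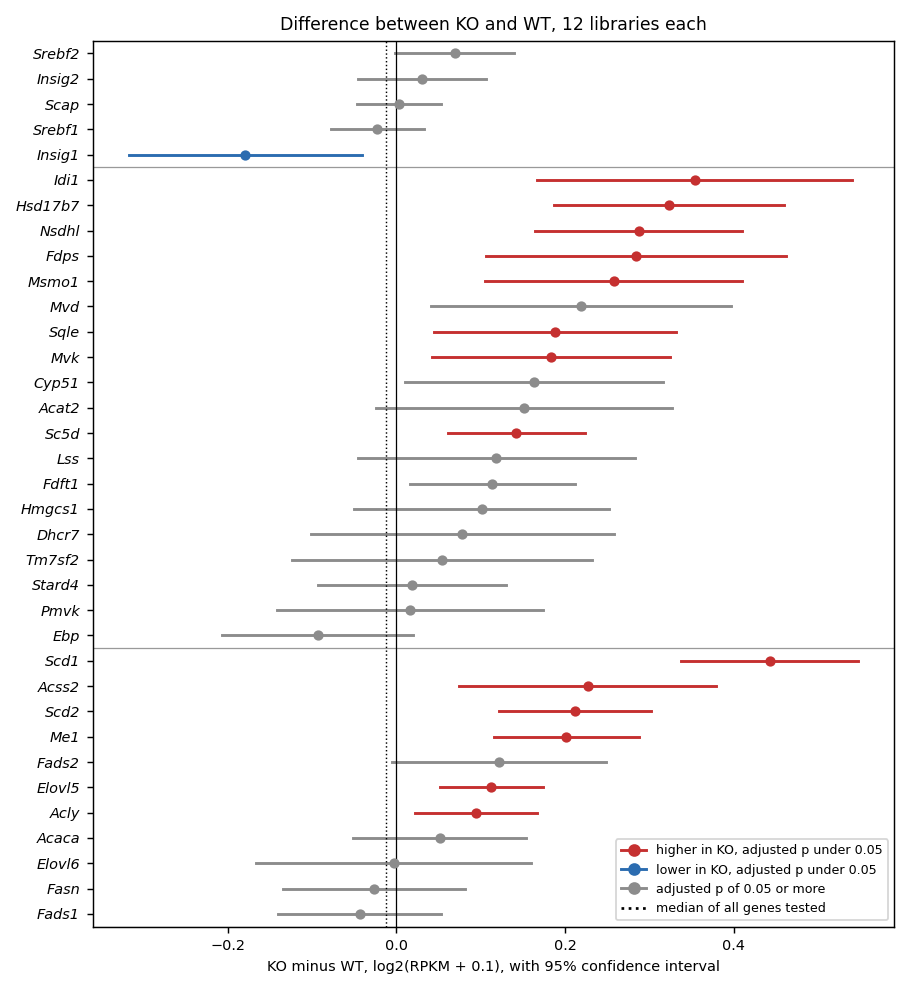
Log2 difference between KO and WT (points) with its 95% confidence interval (bars) for the 35 genes, grouped into regulators, sterol genes and fatty acid genes from top to bottom. Intervals of 8 sterol genes and 6 fatty acid genes in red lie above 0, that of *Insig1* in blue lies below 0, and the dotted line marks the median of all genes tested.

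The bases just upstream of the sterol genes' starts are shown because the 8 sterol genes called were all higher in KO cells and because SREBP is known to act on sterol promoters together with NF-Y, which binds the CCAAT box. RefSeq promoter windows from 250 bases before to 50 bases after the start (GRCm38.p6) were matched for 28 of the 35 genes, 15 of them sterol genes. The 150 bases before the start are printed for the 6 sterol genes that were higher in KO cells and have a window, and for *Hmgcs1*, which was not called. They are written 5′ to 3′ on the strand of the gene, and capitals mark the CCAAT box (CCAAT, or ATTGG on the other strand) and the SREBP element core (TCACNCCA). The windows are, in the order below, chr13:119690201-119690350 (+), chr5:114444119-114444268 (+), chr13:8885456-8885605 (+), chr8:64733579-64733728 (-), chrX:72918371-72918520 (+), chr1:169969206-169969355 (-) and chr9:42264301-42264450 (-). 
Hmgcs1: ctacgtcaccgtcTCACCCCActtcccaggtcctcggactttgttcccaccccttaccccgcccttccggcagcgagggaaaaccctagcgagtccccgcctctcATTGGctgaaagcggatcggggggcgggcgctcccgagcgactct
Mvk: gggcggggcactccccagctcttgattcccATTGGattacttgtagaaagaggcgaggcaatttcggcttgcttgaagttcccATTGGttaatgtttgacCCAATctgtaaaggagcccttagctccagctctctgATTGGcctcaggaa
Idi1: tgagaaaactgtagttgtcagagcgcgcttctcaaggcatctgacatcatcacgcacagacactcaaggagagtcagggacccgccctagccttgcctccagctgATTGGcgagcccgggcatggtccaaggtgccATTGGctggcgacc
Msmo1: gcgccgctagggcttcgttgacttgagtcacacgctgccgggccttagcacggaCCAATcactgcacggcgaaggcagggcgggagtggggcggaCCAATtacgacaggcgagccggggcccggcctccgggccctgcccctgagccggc
Nsdhl: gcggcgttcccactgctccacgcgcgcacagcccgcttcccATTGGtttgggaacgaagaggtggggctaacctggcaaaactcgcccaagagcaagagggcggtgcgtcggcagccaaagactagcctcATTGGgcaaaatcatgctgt
Hsd17b7: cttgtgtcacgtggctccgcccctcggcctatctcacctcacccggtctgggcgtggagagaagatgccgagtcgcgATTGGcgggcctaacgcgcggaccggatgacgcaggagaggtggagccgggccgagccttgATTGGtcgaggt
Sc5d: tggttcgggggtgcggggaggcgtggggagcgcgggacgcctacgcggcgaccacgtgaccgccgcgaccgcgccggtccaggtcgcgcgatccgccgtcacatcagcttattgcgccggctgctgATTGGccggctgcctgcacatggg
Each of these 7 stretches holds at least 1 CCAAT box, *Mvk* holds 4, and the *Hmgcs1* stretch also holds an SREBP element core that begins at base -137 from the start. Among the uncalled sterol genes not printed, the stretches of *Mvd*, *Lss*, *Cyp51*, *Tm7sf2* and *Ebp* also hold at least 1 CCAAT box. Those of *Pmvk*, *Dhcr7* and *Acat2* do not hold any. Stretches of this length were not counted over all genes.

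Over the whole windows, on either strand, 14 of 15 sterol genes held a CCAAT box (93.3%), as did 5 of 8 fatty acid genes (62.5%), 4 of 5 regulators and 41.1% of all 27025 genes with a window. Some genes have several windows, and a gene was counted if any of its windows held the motif. Counted by window, a CCAAT box was in 14 of 18 for sterol genes, 5 of 9 for fatty acid genes and 5 of 10 for regulators. Of all 32851 windows 37.4% held one. The SREBP element core was found in *Srebf2*, *Hmgcs1* and *Msmo1*, in no fatty acid gene, and in 4.97% of all genes. In *Msmo1* it began at base -177 and in *Srebf2* at base -162, outside the stretch printed. The Sp1 box (GGGCGG) was in 14 of 15 sterol genes and 4 of 8 fatty acid genes against 38.2% of all genes. The hexamer AGGTCA, which many nuclear receptors share and which forms the core of the longer REV-ERB and ROR element, was in *Insig1*, *Dhcr7*, *Hmgcs1*, *Acly* and *Elovl6*, and in 18.1% of all genes. A CACGTG E-box, which clock activators can bind, was in 3 of 15 sterol genes (*Dhcr7*, *Hsd17b7* and *Sc5d*), in *Elovl5*, *Insig1* and *Scap*, and in 8.09% of all genes. A CCAAT box was present in *Hsd17b7*, *Nsdhl* and *Idi1*, which were higher in KO cells, and also in *Ebp* and *Tm7sf2*, which were not called. *Pmvk*, also not called, held it only in a window other than the one nearest the deposited start of the gene. The same was true of *Dhcr7*, *Srebf1*, *Insig2* and *Me1*. These are matches of letters in short windows and not measured binding.

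The fatty acid genes called higher in KO cells were 2 desaturases, 1 elongase and the 3 genes that supply acetyl-CoA and NADPH. *Scd1*, a stearoyl-CoA desaturase that makes monounsaturated fatty acids, ranged from 5.56 to 7.25 RPKM with a median of 6.10 in WT and from 7.32 to 9.95 RPKM with a median of 8.41 in KO libraries. The lowest KO value, at 24 h, was above the highest WT value, at 16 h, so the groups did not overlap. KO above WT without overlap was seen in 0.199% of all genes tested and in no other member. The log2 difference was 0.44 ± 0.05, with a 95% confidence interval from 0.34 to 0.55 (adjusted p = 1.18e-06), and the call held under all 22 alternatives, with an adjusted p of at most 0.003.

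*Scd2*, a neighbouring stearoyl-CoA desaturase gene on chromosome 19 that is known from brain, was the highest expressed member by far. It ranged from 69.2 to 88.2 RPKM with a median of 80.3 in WT and from 79.5 to 102 RPKM with a median of 91.8 in KO libraries. KO was higher at 12 of 12 time points and 8 KO libraries exceeded all WT libraries, with a log2 difference of 0.21 ± 0.04 (adjusted p = 0.000952). *Scd1* and *Scd2* are close paralogs, so some reads of one could have been counted for the other or lost, and *Scd2* had 12.7 times the RPKM of *Scd1* in WT cells. The desaturase genes *Fads1* and *Fads2*, which act on polyunsaturated fatty acids, were not called, with log2 differences of -0.04 ± 0.05 and 0.12 ± 0.06 (adjusted p = 0.52 and 0.147).

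All 3 supply genes were higher in KO cells. *Me1*, the malic enzyme that yields cytosolic NADPH, ranged from 10.2 to 13.0 RPKM with a median of 11.9 in WT and from 12.3 to 15.3 RPKM with a median of 13.3 in KO libraries. KO was higher at 12 of 12 time points, 8 KO libraries lay above every WT library, and the log2 difference was 0.20 ± 0.04 (adjusted p = 0.000896). *Me1* and *Scd1* were the 2 members called under all 22 alternatives.

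*Acss2*, which makes acetyl-CoA from acetate, ranged from 1.77 to 2.93 RPKM with a median of 2.39 in WT and from 2.32 to 3.38 RPKM with a median of 2.90 in KO libraries. Its KO values were the lowest at 12 h and 16 h, where they did not exceed the WT values, and 5 later KO libraries were above all WT libraries. The log2 difference was 0.23 ± 0.07 (adjusted p = 0.025), a call lost under 6 of 22 alternatives (adjusted p up to 0.49). *Acly*, ATP citrate lyase, which makes acetyl-CoA from citrate, had a median of 18.1 RPKM in WT (16.8 to 20.6) and 19.4 RPKM in KO libraries (18.0 to 21.9), with overlapping groups and a log2 difference of 0.09 ± 0.04 (adjusted p = 0.0496). Its call was lost under 14 of 22 alternatives (adjusted p up to 0.245).

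The 2 enzymes that build the chain itself did not pass the test. *Fasn*, fatty acid synthase, ranged from 7.37 to 9.90 RPKM with a median of 9.31 in WT and from 7.66 to 10.2 RPKM with a median of 8.78 in KO libraries. The groups overlapped throughout, and the log2 difference was -0.03 ± 0.05 with a 95% confidence interval from -0.13 to 0.08 (adjusted p = 0.748). *Acaca*, acetyl-CoA carboxylase, had a median of 1.81 RPKM in both genotypes, and its difference was 0.05 ± 0.05 (95% confidence interval -0.05 to 0.15, adjusted p = 0.476).

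Of the 2 elongases 1 was called, and whether their differences between KO and WT were unlike was not tested. *Elovl5*, which lengthens polyunsaturated chains, ranged from 17.5 to 21.4 RPKM with a median of 18.7 in WT and from 19.2 to 22.01 RPKM with a median of 20.5 in KO libraries, with a log2 difference of 0.11 ± 0.03 (adjusted p = 0.00652). *Elovl6*, which lengthens palmitate to stearate and was the lowest expressed fatty acid gene, ranged from 1.25 to 2.01 RPKM in WT and from 1.08 to 1.84 RPKM in KO libraries, with a log2 difference of 0.00 ± 0.08 (adjusted p = 0.98). The calls among fatty acid genes thus fell on precursor supply, *Elovl5* and the stearoyl-CoA desaturases, and not on *Acaca* or *Fasn*. Whether called and uncalled genes differ from each other was not tested.

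**Figure D3:**
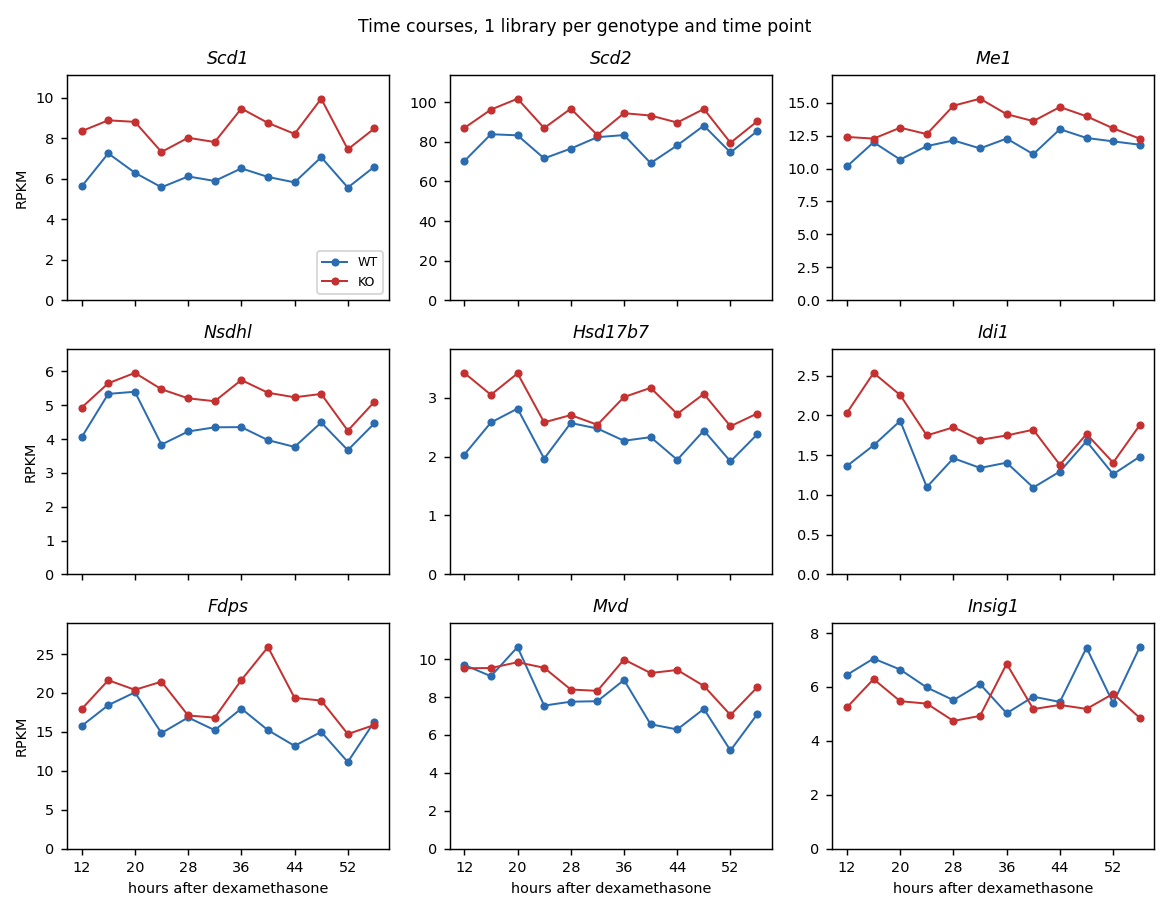
RPKM (vertical axis, from 0) against hours after dexamethasone in WT (blue) and KO (red), 1 library per point, for 9 genes. The KO line lies above the WT line at all 12 time points for *Scd1*, *Scd2*, *Me1*, *Nsdhl*, *Hsd17b7* and *Idi1*, at 11 for *Fdps* and at 10 for *Mvd*, whereas *Insig1* is lower in KO at 10.

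The observed difference between the KO and WT libraries varied in size over the 2 days. At 20 h 8 of 19 sterol genes were higher in the KO library and their median log2 difference was -0.05, the lowest of any time point. At 40 h 18 of 19 were higher with a median of 0.38, and 18 of 19 were also higher at 24 h, 36 h and 44 h. The median over all genes tested was -0.04 at 20 h and -0.03 at 40 h. The fatty acid genes had medians from -0.01 at 56 h, where 5 of 11 were higher in KO, to 0.23 at 28 h, and 11 of 11 were higher at 48 h. Each time point has 1 library per genotype, so none of these differences has a replicate. With the first 6 time points alone 2 sterol genes passed the test, *Idi1* as higher and *Ebp* as lower in KO cells (log2 difference of *Ebp* -0.19, adjusted p = 0.0479). In the same 6, 4 fatty acid genes were higher (*Me1*, *Elovl5*, *Scd1* and *Scd2*). With the last 6 alone 6 sterol genes (*Mvk*, *Mvd*, *Sqle*, *Msmo1*, *Nsdhl* and *Hsd17b7*) and 2 fatty acid genes (*Me1* and *Scd1*) were higher. Among all genes, 1336 were called in either direction with the first 6 time points and 2081 with the last 6. Which genes pass in one set of time points and not in the other does not show that the sets differ. Whether the difference itself changed over time was tested gene by gene, only as a linear slope or a 24 h rhythm. No gene passed, as given below, and contrasts between single time points were not tested.

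Within a genotype, sterol genes deviated together from library to library. In WT cells 19 of 19 sterol genes were above their own WT mean at 16 h and 18 of 19 at 20 h, with mean log2 deviations of 0.21 and 0.31. At 44 h and at 52 h 19 of 19 were below it, with mean deviations of -0.18 and -0.27. In KO cells 18 of 19 were above their KO mean at 16 h and at 36 h, with mean deviations of 0.17 and 0.16, and 17 of 19 were below it at 52 h, with -0.25. The low libraries at 52 h were thus found in both genotypes, whereas at 40 h 16 of 19 sterol genes were below the mean in WT and 7 of 19 in KO cells.

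The mean deviation of the fatty acid genes lay between -0.14 and 0.13 in every library, while single genes deviated more, *Acss2* from -0.42 to 0.27 and *Elovl6* from -0.45 to 0.38. In WT cells 11 of 11 were below the mean at 40 h and 11 of 11 above it at 56 h, and at 20 h, where the sterol genes were highest, 5 of 11 were above it. The genes of a library share its RNA pool and depth, so these counts describe libraries and are not independent measurements. No test was made of them, and such counts were not made over all genes.

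**Figure D4:**
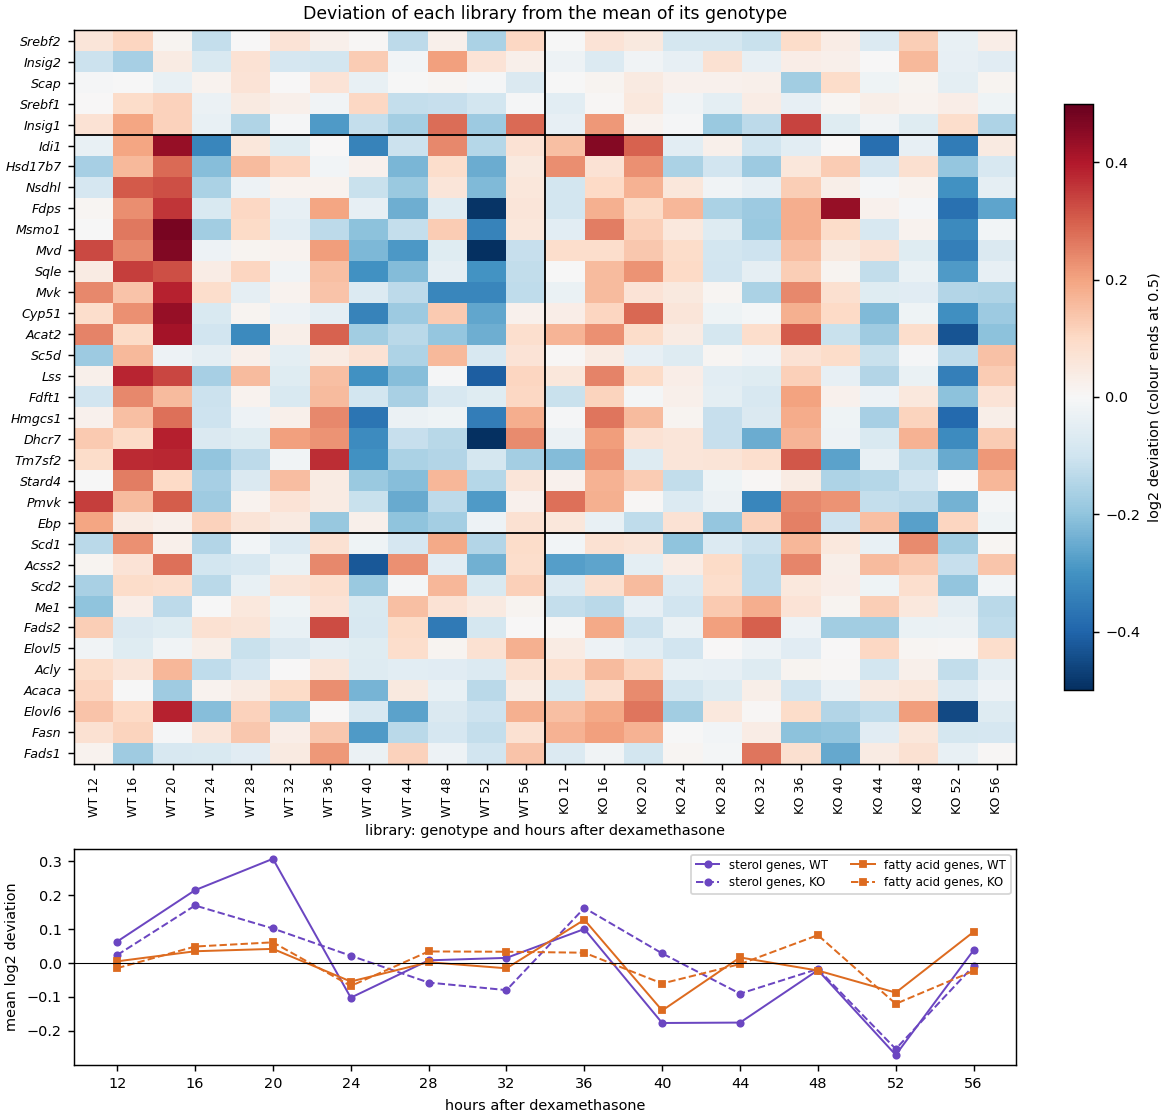
Top, log2 deviation of each of the 35 genes (rows) in each library (columns, genotype and hours after dexamethasone) from the mean of its genotype. Bottom, mean deviation of the 19 sterol and 11 fatty acid genes by time point. Sterol genes are above their mean together at 16 h in both genotypes and below it together at 52 h. The mean of the fatty acid genes spans a narrower range over the libraries, although in some, such as WT at 36 h, it deviates more than the sterol mean.

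No member passed the test for a 24 h rhythm in either genotype. The limma fit of cosine and sine terms with a linear trend called 0 of 35 members in WT cells, where 0.0397% of all genes were called, and 0 of 35 in KO cells, where 0.0794% were called. At an unadjusted p under 0.05 there were 0 members in WT and 2 in KO cells (*Fdps* and *Pmvk*), against 8.23% and 8.39% of all genes tested. In the same fit the clock gene *Per2* had log2 amplitudes of 0.71 (WT) and 0.75 (KO) (adjusted p = 0.0137 and 0.00398).

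Amplitudes of sterol genes were 0.01 to 0.16 in WT and 0.07 to 0.24 in KO cells on the log2 scale, and those of fatty acid genes were 0.00 to 0.11 and 0.02 to 0.14. The smallest p among sterol genes was that of *Acat2* in WT, with an amplitude of 0.16 (adjusted p = 0.678), and of *Fdps* in KO cells, with an amplitude of 0.24 (adjusted p = 0.484). *Fasn* had the smallest among fatty acid genes in WT, with an amplitude of 0.11 (adjusted p = 0.645), and *Fads2* in KO cells, with 0.14 (adjusted p = 0.667). *Srebf2* had an amplitude of 0.07 in WT and 0.06 in KO cells (adjusted p = 0.653 and 0.796), and *Insig2* one of 0.06 and 0.03 (adjusted p = 0.701 and 0.951). The difference in rhythm between the genotypes passed the limma test for no gene (0% called), and 745 of all genes and 0 members had an unadjusted p under 0.05. Among the members the 3 smallest p-values for this difference were those of *Acaca*, *Fdps* and *Fasn* (unadjusted limma p = 0.0902, 0.181 and 0.191).

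Over the 2 days RNA of 2 sterol genes fell in WT cells. *Mvd* fell by 0.34 ± 0.08 and *Mvk* fell by 0.27 ± 0.06 on the log2 scale per 24 h (limma adjusted p = 0.0236 and 0.0232), where 1.51% of all genes fell at this threshold. *Mvd* had its highest WT value of 10.6 RPKM at 20 h and its lowest of 5.18 RPKM at 52 h. *Mvk* had its highest of 6.67 RPKM at 20 h and its lowest of 4.03 RPKM at 48 h and 52 h. Both calls were lost without the 28 h, 40 h or 44 h time point, *Mvd* also without 12 h or 20 h, and *Mvk* also without 24 h, 48 h or 52 h. *Sqle*, with a slope of -0.27 ± 0.07 per 24 h, was next and was not called (adjusted p = 0.0519).

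Slopes in WT cells were below 0 for 18 of 19 sterol genes, with a median of -0.16 per 24 h. The same held for 6 of 11 fatty acid genes, with a median of -0.03. Of all 15112 genes tested 7056 had a WT slope below 0, and the median of all was 0.01. In KO cells 15 of 19 sterol genes had slopes below 0, with a median of -0.05, and 7 of 11 fatty acid genes, with a median of -0.02. Of all genes tested 8173 had a KO slope below 0, and the median of all was -0.01. No member was called in KO cells, where 3.14% of all genes were called in either direction, and 2 had an unadjusted p under 0.05 (*Fasn* and *Fads2*). *Fasn* had slopes of -0.14 ± 0.06 in WT and -0.17 ± 0.06 in KO cells (adjusted p = 0.225 and 0.117). *Elovl5* had a slope of 0.09 ± 0.04 in WT cells (adjusted p = 0.254), and *Acss2* one of 0.17 ± 0.10 in KO cells (adjusted p = 0.408).

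The difference in slope between the genotypes passed the test for no gene (0% called by limma), with 982 genes and 2 members at an unadjusted p under 0.05. The 2 members were *Mvk* and *Mvd*, whose slopes were 0.21 ± 0.09 and 0.27 ± 0.11 per 24 h less steep in KO cells (adjusted p = 0.701 and 0.705). A decline in WT but not in KO cells was therefore not established for either gene.

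Genes next to these pathways were counted in the same fit. Of 7 genes for processing and degradation of SREBP and its partners, which include both site proteases (*Mbtps1* and *Mbtps2*), none was called, and their median log2 difference was 0.02. Among 7 genes of the isoprenoid branch, which leads to ubiquinone, dolichol and protein prenylation, *Nus1*, a dolichol synthesis subunit, had means of 10.7 ± 0.6 RPKM (WT) and 11.4 ± 0.3 RPKM (KO, SD, n = 12, limma adjusted p = 0.0149). *Fntb*, a farnesyltransferase subunit, was at 6.24 ± 0.52 and 6.82 ± 0.51 RPKM (adjusted p = 0.0411).

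Of 12 tested genes of sterol traffic and the oxysterol receptor LXR, 3 were higher and 2 lower in KO cells, where 11.5% and 14.7% of all genes were. *Vldlr*, a lipoprotein receptor, had means of 1.49 ± 0.26 RPKM (WT) and 2.01 ± 0.34 RPKM (KO), with a log2 difference of 0.40 (limma adjusted p = 0.00229). The cholesterol exporter gene *Abcg1* and the sterol-responsive *Tmem97* were higher by 0.37 and 0.18 (adjusted p = 0.0104 and 0.0365). *Npc1*, which moves cholesterol out of lysosomes, fell by 0.13, and *Mylip*, a ligase that degrades lipoprotein receptors, fell by 0.14 on the log2 scale (adjusted p = 0.0196 and 0.0349). *Abcg1* and *Mylip*, which are both known LXR targets, thus had calls in opposite directions, and *Abca1*, another, had a difference of 0.01 (adjusted p = 0.904).

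Of 10 tested genes for NADPH, citrate and acyl-CoA supply, 2 were higher in KO cells, where 11.5% of all genes were. *G6pdx*, which opens the pentose phosphate pathway and yields NADPH, ranged from 10.9 to 12.9 RPKM in WT and from 12.8 to 16.3 RPKM in KO libraries, with a log2 difference of 0.26 ± 0.04 (limma adjusted p = 1.25e-05). *Slc25a1*, the mitochondrial citrate carrier, had means of 17.2 ± 0.9 RPKM (WT) and 19.5 ± 1.6 RPKM (KO) (adjusted p = 0.00152). *Pgd* and *Idh1*, which also yield NADPH, had differences of 0.04 and 0.01 (adjusted p = 0.436 and 0.785).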

How the data were processed

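Poly(A) RNA of 12 WT and 12 KO libraries was sequenced with 101-bp paired-end reads. Per the study's methods and the submitters' processing notes, the authors trimmed reads with Trimmomatic 0.36, aligned them to the mouse genome GRCm38 with STAR 2.5.4b, discarded alignments of low mapping quality with SAMtools, and quantified exons of UCSC canonical genes with HOMER. The authors deposited RPKM values, and the use of strand is not given in the sources used here. Multiplied back by length and total, all values were multiples of 0.5 fragment within a tolerance of 0.01, and these fragments served to describe depth only, which was 6183500.5 to 10287969 exon fragments per library. RPKM values were not turned into counts for testing.

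Genes with a mean above 0.5 RPM in WT or KO cells were tested (15112), and adjusted p-values cover all of them. Values were analysed as log2(RPKM + 0.1), so differences of low genes are understated, with limma 3.58.1 in R 4.3.3 (moderated tests with a mean-variance trend, Benjamini-Hochberg adjustment, two-sided, threshold 0.05). The difference in level used the genotype alone. Rhythm (24 h cosine and sine) and linear trend were fitted jointly for both genotypes, each with its own terms. The tests were first tried on simulated data. The rhythm caller used in the study was not run. Promoter windows and starts come from RefSeq (GRCm38.p6) and exon overlaps from GENCODE M21. Tables and figures were made with Python 3.11.15, pandas 2.3.3 and matplotlib 3.10.9.

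The 35 genes, their groups, and the pathway and marker lists were chosen with earlier results of these data known. Genes described in full were the 5 regulators, members past the threshold in KO against WT, and the highest and lowest expressed member of each group. The 3 members of each group with the smallest p in each rhythm or trend test were also chosen, but values are given for only part of them. From other lists, genes past the threshold are named, and a few others were added after their values were seen. Alternatives were a pseudocount of 1 or 0.01, no filter or a mean of at least 1 RPKM, quantile or median-ratio scaling, the time point as a block, rhythm and trend terms as covariates, the first or second 24 h only, periods of 22 h and 26 h, models without the trend or rhythm terms, a permutation test of mean RPKM (100000 permutations), and omission of each time point in turn. Some genes of these pathways are not reported here.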

Additional observations from a re-analysis of the deposited data

How the results depend on the processing

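Of the 14 genes higher in KO cells, *Me1* and *Scd1* kept their call in all 22 alternatives that refit the level, and 13 to 16 genes were called higher with other pseudocounts, scalings or covariates, except that 11 were with no filter on low values and 12 with a mean of at least 1 RPKM. With the first 24 h alone 5 were higher, with 2 sterol genes called (*Idi1*, and *Ebp* as lower) and 1336 of all genes called, and with the second 24 h alone 8, with 2 fatty acid genes called and 2081 genes in all, each with fewer libraries than the 3970 calls of the full set. Leaving out 1 time point gave 10 to 16 members higher, with 6 to 10 sterol and 4 to 6 fatty acid genes called and 3205 to 4029 genes in all. The losses without a time point fell on *Acly*, *Acss2*, *Mvk* and *Sqle*, and the omissions of 24 h, 40 h and 48 h each left 10 members called. The 1 member lower in KO, *Insig1*, became 0 with a pseudocount of 1, no filter, a mean of at least 1 RPKM, the time point block, covariates or the second 24 h, and 0 to 1 without single time points. With the first 24 h *Insig1* also lost its call, and the 1 gene lower there was *Ebp*. *Insig1* kept its call only without 36 h or 52 h among the omissions, and the cause was not tested.

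Genes that were not called and lay near 0 changed sign. Log2 differences with the first 24 h were -0.0977 for *Pmvk*, -0.00319 for *Tm7sf2*, -0.0447 for *Dhcr7*, 0.000284 for *Fasn*, 0.0217 for *Elovl6* and 0.0251 for *Fads1*. With the second 24 h they were 0.0235 for *Srebf1*, -0.0111 for *Scap*, -0.00277 for *Insig2* and 0.00537 for *Ebp*. *Elovl6* was at 0.00462 with quantile and 0.00679 with median-ratio scaling. Without single time points *Scap* ranged from -0.0087 to 0.0252, *Pmvk* from -0.0147 to 0.0517, *Fasn* from -0.0425 to 0.00468 and *Elovl6* from -0.0286 to 0.0284.

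No alternative called a member for rhythm, for a difference in rhythm or slope, or for a trend in KO cells. Genes with a rhythm in WT numbered 2 with a period of 22 h, 2 with 26 h and 3 to 8 without single time points, and in KO 7 with 22 h and 7 to 14 without single time points. The rhythm difference called 1 gene without the trend term and 0 to 1 without single time points. Trends called 0 to 3 members and 219 to 508 genes in WT and 217 to 475 genes in KO without single time points, and 314 in KO with no filter. The slope difference called 0 to 1 genes.

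Time points do not pair the libraries by their labels. Deviations of libraries of the same time point correlated from -0.18 to 0.39, over 0.1 in 7 of 12, and 5 of 12 WT libraries correlated best with their own time point. With the time point as a replicate block 18 members were higher and 0 lower, 12 of them sterol genes, with *Acat2*, *Cyp51*, *Fdft1* and *Mvd* gained (adjusted p = 0.042, 0.023, 0.019 and 0.009). Calls over all 15112 genes tested also rose with the block, to 1960 higher and 2414 lower, from 1743 and 2227. By the unadjusted permutation test 16 members were higher and *Insig1* was lower (permutation p = 0.0213). That test was run on the members alone, so no share of all genes stands beside its count. Counting error is largest for *Idi1* and *Tm7sf2*, with as few as 45 and 44.5 fragments in a library.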

Other observations

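Fatty acid breakdown and glycerolipid synthesis use the products of the genes described above. Of 9 genes of fatty acid oxidation, 2 were lower in KO cells in limma, where 14.7% of all genes were. *Cpt1a*, which admits long-chain fatty acids to mitochondria, ranged from 12.2 to 16.1 RPKM in WT and from 11.8 to 13.8 RPKM in KO libraries, with means of 14.8 ± 1.0 and 13.0 ± 0.5 RPKM (SD, n = 12) and a log2 difference of -0.18 (limma adjusted p = 0.000457). The trifunctional protein genes *Hadha* and *Hadhb* were not called, and the median of the 9 log2 differences was 0.01.

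Of 10 genes for elongation partners and glycerolipid synthesis, 2 were higher in KO cells, where 11.5% of all genes were. *Hsd17b12*, a reductase that works with the elongases, had means of 17.1 ± 1.0 RPKM (WT) and 18.4 ± 1.1 RPKM (KO) (limma adjusted p = 0.0285). *Pnpla3*, a lipid droplet protein gene and known SREBP1c target, was low in both genotypes, with 0.322 to 0.726 RPKM in WT and 0.502 to 0.954 RPKM in KO libraries (log2 difference 0.45 on the scale with a pseudocount, adjusted p = 0.00368). *Gpam*, *Dgat1* and *Dgat2*, which encode acyltransferases of triglyceride synthesis, had differences of 0.00, -0.02 and -0.02 (adjusted p = 0.952, 0.791 and 0.896).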
